A study of Mus musculus with 20 samples.

Results

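The MHC and antigen presentation genes were taken from the expression table by name. A row was a member when its symbol starts with H2- or is B2m, Cd74, Ciita, Tap1, Tap2, Tapbp, Psmb8, Psmb9, Psmb10, Psme1, Psme2, Nlrc5 or Rfx5. This gave 55 of 23284 genes. Of these, 40 belong to the class I pathway and 13 to the class II pathway. The other 2, H2-Ke2 and H2-Ke6, lie in the same chromosomal region but encode no presenting chain. A gene was tested when at least 4 of the 20 libraries had a value of at least 5. By that filter 33 members were tested among 13456 genes, 20 of class I, 11 of class II and the 2 of neither class.

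The libraries come from tissue recombinants, grafts in which mouse epithelium was combined with rat mesenchyme. The epithelium was taken from donors aged 2 months (growth text C57Bl/6J, strain label a hybrid of 129/SvImJ and C57Bl/6J), and the mesenchyme was urogenital sinus mesenchyme of Sprague Dawley rats, an embryonic tissue able to direct epithelium towards prostate. SVE held seminal vesicle epithelium and PE held prostate epithelium, both labelled wild type for NKX3.1. The mNKX3.1 group held seminal vesicle epithelium with a construct of that name, UTY_sh seminal vesicle epithelium with a hairpin against Uty, and mNKX3.1+UTY_sh seminal vesicle epithelium with both. The labels do not state whether the m stands for mouse or mutant. Each of the 5 groups had 4 libraries. In all groups the host received doxycycline in its water for 3 months, which induces the pTRIPZ-derived vector, and the grafts were collected 3 months after implantation. Neither the strain nor the immune status of the host is given in the sources used here. Whether libraries of 1 group are grafts from different animals is not labelled either, so each p-value measures only the spread between samples, and that spread may be technical.

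The values are log2 values deposited by the authors. Their antilogs behave as read counts multiplied by 1 factor per library, which does not bring total reads to a common depth. Low values are compressed towards a floor of about 2.27. A difference of 1 is therefore close to a doubling for well-measured genes and understates the change of low ones. Depth was about 14900000 to 29800000 reads per library. Uty, the target of the hairpin, was 9.29 ± 0.21 (SD, n = 4) in SVE, 9.22 ± 0.23 in UTY_sh and 9.15 ± 0.09 in mNKX3.1+UTY_sh, against 10.24 ± 0.14 in PE and 10.23 ± 0.11 in mNKX3.1. Uty was therefore not lower than SVE beyond the spread in the libraries labelled UTY_sh (difference -0.07, 95% interval -0.301 to 0.163, adjusted p = 0.999 with limma), nor in those labelled mNKX3.1+UTY_sh (-0.14, 95% interval -0.368 to 0.0958). Each direction below that involves the groups labelled UTY_sh or mNKX3.1+UTY_sh is therefore a direction between labelled groups.

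MHC class I molecules display peptides made in the cytosol on nearly all nucleated cells. A polymorphic heavy chain pairs with the light chain beta-2-microglobulin, and the peptide is cut by the proteasome, carried into the endoplasmic reticulum by the TAP transporter and loaded with the help of tapasin. MHC class II molecules display peptides from endosomes, mainly on dendritic cells, B cells and macrophages, although epithelium can be induced to make them. The transactivators NLRC5 for class I and CIITA for class II act through shared promoter elements (the X and Y boxes, bound by the RFX complex and NF-Y), and interferon gamma raises both classes.

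The promoters of the light chain, of both classical heavy chains and of a pair of class II chains are shown here, because these genes of 1 regulatory family went in different directions in the libraries. Each sequence is the 160 bases before the annotated start, 5′ to 3′ along the gene, from RefSeq on GRCm38.p6, which is not the mm9 build the submitters' processing notes name. Capitals mark matches, on either strand, to the interferon-stimulated response element core (GAAA, then any 2 bases, then GAAA again), to the Y box, whose forward letters are ATTGG, to a fragment of the X box, which reads AGCAAC, or to the NF-kappaB letters GGGANTTCC. B2m lies at chr2:122147527-122147686 (plus strand), H2-K1 at chr17:34000348-34000507 (minus), H2-D1 at chr17:35262934-35263093 (plus), H2-Aa at chr17:34287824-34287983 (minus) and H2-Eb1 at chr17:34305707-34305866 (plus).
B2m: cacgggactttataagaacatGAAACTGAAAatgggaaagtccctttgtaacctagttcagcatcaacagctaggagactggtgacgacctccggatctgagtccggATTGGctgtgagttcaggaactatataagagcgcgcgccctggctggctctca
H2-K1: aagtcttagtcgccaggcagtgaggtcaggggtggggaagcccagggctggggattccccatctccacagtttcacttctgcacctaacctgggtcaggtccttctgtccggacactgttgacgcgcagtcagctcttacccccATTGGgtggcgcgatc
H2-D1: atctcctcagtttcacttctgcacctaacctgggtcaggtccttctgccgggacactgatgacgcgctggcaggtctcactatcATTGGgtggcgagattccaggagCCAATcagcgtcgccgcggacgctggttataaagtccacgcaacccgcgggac
H2-Aa: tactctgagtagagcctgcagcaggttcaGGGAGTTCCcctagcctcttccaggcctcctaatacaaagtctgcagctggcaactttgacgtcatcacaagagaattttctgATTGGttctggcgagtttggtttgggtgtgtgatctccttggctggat
H2-Eb1: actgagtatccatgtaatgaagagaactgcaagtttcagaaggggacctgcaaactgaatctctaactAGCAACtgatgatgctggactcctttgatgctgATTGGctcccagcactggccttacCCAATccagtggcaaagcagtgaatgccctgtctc

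In these windows a Y box began 53 bases before the start in B2m, 16 in H2-K1, 76 in H2-D1, 48 in H2-Aa and 59 in H2-Eb1. Of the 5 promoters printed, an exact match to the letters of the response element core was found in that of B2m, beginning 139 bases before the start. The whole RefSeq window of 250 bases before to 50 bases after the start was searched on both strands for all members, and 40 members had one. Among tested class I members, 15 of 20 had a window, and 11 of these held a Y box and 3 the response element core (B2m, H2-T23 and Psme1). Among tested class II members, 7 of 11 had a window, 7 held a Y box and 0 the response element core. Over all 32851 promoters of the same length, the Y box was present in 37.4%, the response element core in 3.44%, the X box fragment in 14.8% and the NF-kappaB letters in 1.68%. The STAT core TTCNNNGAA, present in 8.3% of all promoters, was found in H2-M3 and Psmb8 of class I and H2-DMb2 of class II. These matches describe letters only, and the motifs printed above do not overlap each other. Variant forms of the elements were not searched, so a promoter without a mark may still hold one.

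**Figure D1:**
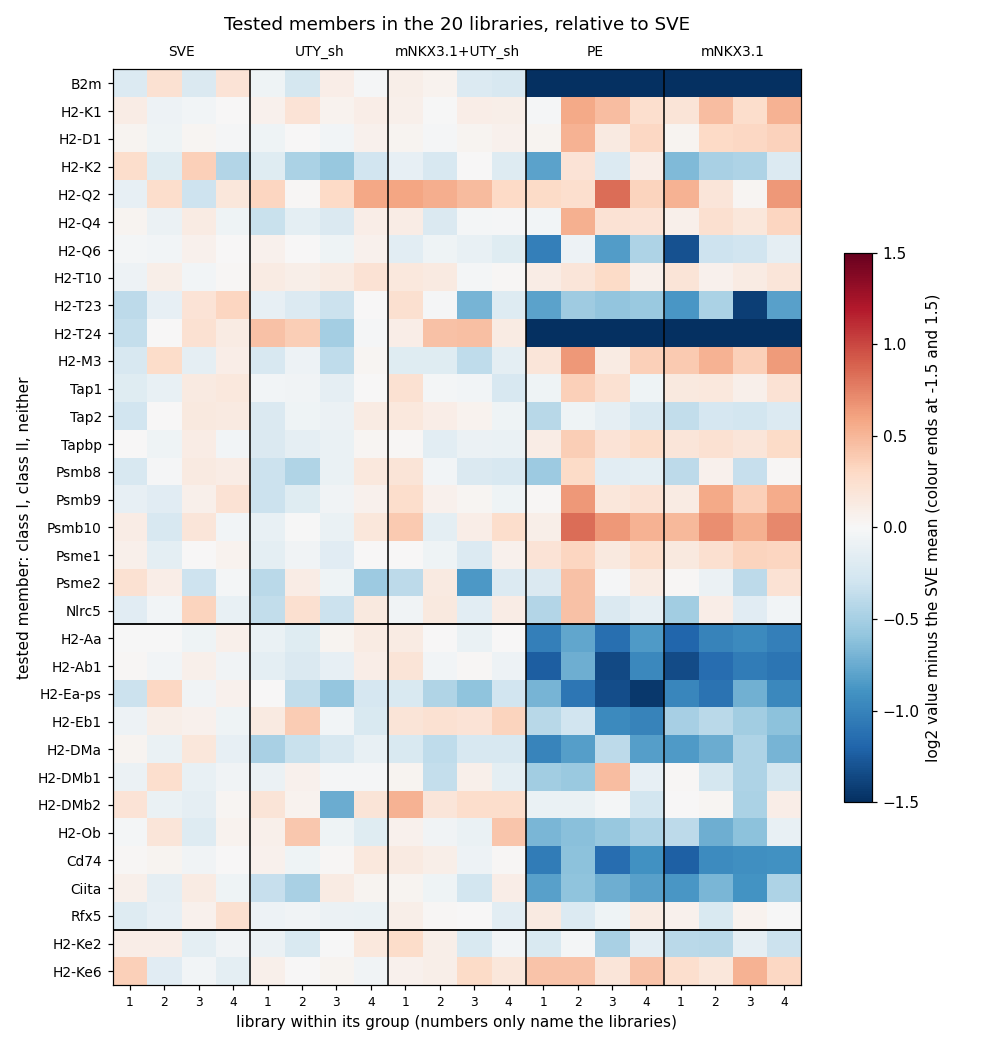
Each row is a tested member and each column a library, grouped by SVE, UTY_sh, mNKX3.1+UTY_sh, PE and mNKX3.1. The colour is the deposited log2 value minus the gene's mean over the SVE libraries. B2m, H2-T24 and most class II members are low in all 8 libraries of PE and mNKX3.1, while Psmb10, H2-K1 and H2-D1 are slightly high in most of these 8, with PE replicate 1 an exception for H2-K1 (10.55).

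In prostate epithelium grafts compared with seminal vesicle epithelium grafts, the class I light chain and the class II genes were lower, while the classical class I heavy chains were slightly higher. Of the class I members, 12 of 20 passed the test (limma, adjusted p below 0.05), 8 of them higher in PE and 4 lower. Of the class II members, 8 of 11 passed and all 8 were lower. Among all 13456 genes tested 62.1% were called in this comparison, 31.8% higher and 30.4% lower, so the share of class I members called was close to that of all genes. The median difference was 0.14 for class I and -0.74 for class II, against 0.02 over all genes.

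B2m, which encodes the class I light chain, differed most of all members. It was 17.15, 17.59, 17.14 and 17.56 in the 4 SVE libraries and 14.52, 14.57, 14.19 and 14.56 in PE. It was 14.40, 14.40, 14.50 and 14.44 in mNKX3.1. In UTY_sh it was 17.29, 17.10, 17.46 and 17.34, and in mNKX3.1+UTY_sh 17.45, 17.41, 17.16 and 17.12. The 20 libraries thus fell into a high set of SVE, UTY_sh and mNKX3.1+UTY_sh and a low set of PE and mNKX3.1 with no value between 14.57 and 17.10. B2m was 7.47-fold lower in PE than in SVE (difference -2.90, SE 0.141, adjusted p = 6.51e-12 with limma). Of all reads, B2m took 0.623% ± 0.0355 (SD, n = 4) in SVE, 0.588% ± 0.0446 in UTY_sh and 0.591% ± 0.0282 in mNKX3.1+UTY_sh, but 0.143% ± 0.0163 in PE and 0.141% ± 0.00377 in mNKX3.1. The fall in share of reads was thus smaller than the 7.47-fold fall on the deposited scale. Every fold given here is on the deposited scale. By share of reads, genes would stand higher in PE and mNKX3.1 relative to the other groups, and small falls might not remain. This was not tested for the other members. On the deposited scale the fall of B2m in PE stayed between -3.01 and -2.81 over 17 settings of the analysis and passed the test in each. In bulk RNA, fewer cells of a type and less RNA per cell cannot be told apart, and this holds for every difference given here.

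The classical heavy chains H2-K1 and H2-D1, which pair with that light chain to present peptides to CD8 T cells, did not fall with it. H2-K1 was 10.68, 10.50, 10.53 and 10.58 in SVE, and 10.55, 11.14, 11.03 and 10.83 in PE. It was 10.77, 11.04, 10.84 and 11.09 in mNKX3.1. The groups SVE and PE overlapped through PE replicate 1, while all 4 mNKX3.1 libraries were above all SVE libraries. H2-K1 rose 1.24-fold in PE (difference 0.31, SE 0.0955, adjusted p = 0.00856 with limma). In UTY_sh H2-K1 was 10.64, 10.78, 10.63 and 10.67, and in mNKX3.1+UTY_sh 10.65, 10.57, 10.67 and 10.66, all within or near the SVE range.

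H2-D1 was 12.26, 12.15, 12.25 and 12.20 in SVE. It was 12.26, 12.74, 12.35 and 12.52 in PE, and 12.26, 12.51, 12.52 and 12.56 in mNKX3.1. The lowest library of PE and of mNKX3.1 lay at the top of the SVE range and the other 3 of each group lay above it. H2-D1 was 12.15, 12.22, 12.17 and 12.28 in UTY_sh and 12.26, 12.20, 12.26 and 12.28 in mNKX3.1+UTY_sh. It rose 1.19-fold in PE (difference 0.25, SE 0.0824, adjusted p = 0.0135 with limma). Both rises depended on the setting. H2-K1 passed in 15 of 17 settings, with an adjusted p of 0.0525 by limma when only PE and SVE were fitted. H2-D1 passed in 14 of 17, with an adjusted p of 0.0709 in that fit, and without PE replicate 2 its difference was 0.16 (adjusted p = 0.0617 by limma). H2-L, another classical name, was not analysed here.

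The ratio of light to heavy chain therefore differed between the sets of libraries. Scaled B2m reads divided by the summed scaled reads of H2-K1 and H2-D1, not corrected for length, were 27.2 in SVE (22.2 to 32.9 over 4 libraries) and 3.01 in PE (2.56 to 3.66). This ratio was 25.5 in UTY_sh, 24.9 in mNKX3.1+UTY_sh and 2.92 in mNKX3.1. Per kilobase of the longest coding transcript, the level of B2m was 198000 scaled reads in SVE and 26300 in PE, that of H2-D1 2270 and 2720, and that of H2-K1 942 and 1180. B2m remained far above both heavy chains on this scale in each group.

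**Figure D2:**
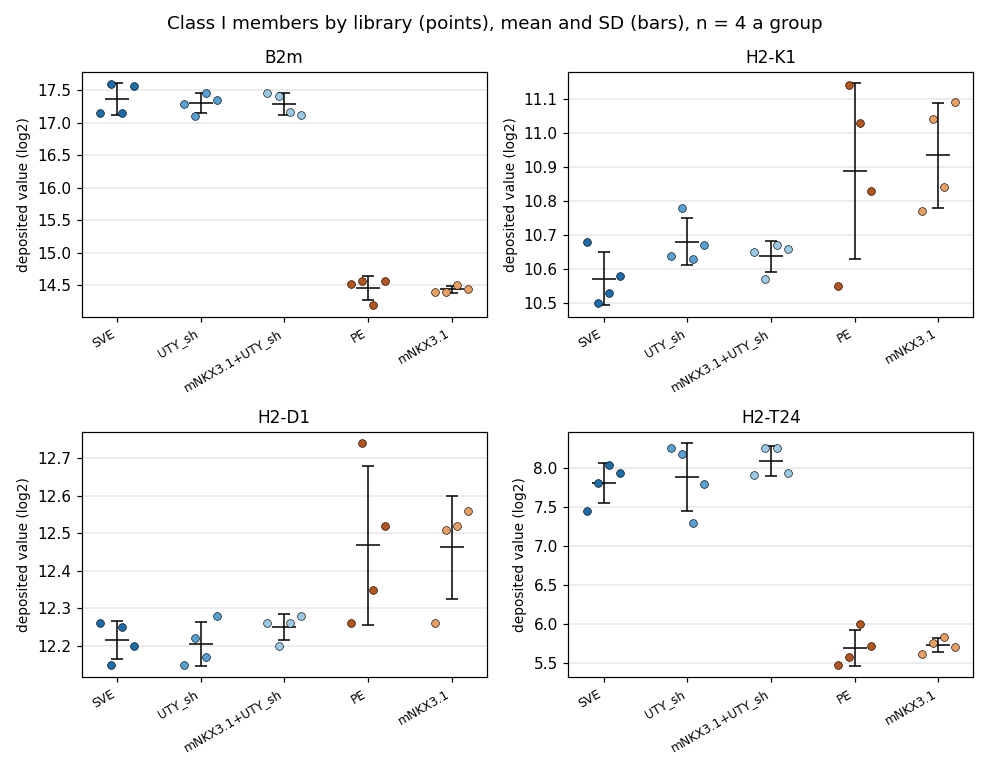
Deposited log2 values of B2m, H2-K1, H2-D1 and H2-T24 for each library in the 5 groups, with points for libraries and bars for mean ± SD (n = 4). B2m and H2-T24 form a high set in SVE, UTY_sh and mNKX3.1+UTY_sh and a low set in PE and mNKX3.1, whereas H2-K1 and H2-D1 reach slightly higher values in PE and mNKX3.1.

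Among the non-classical heavy chains the members split. H2-T24, a gene of the T region, was 7.45, 7.81, 8.04 and 7.93 in SVE and 5.48, 5.58, 6.00 and 5.72 in PE. It was 5.62, 5.76, 5.84 and 5.71 in mNKX3.1. In UTY_sh it was 8.25, 8.18, 7.30 and 7.79, and in mNKX3.1+UTY_sh 7.91, 8.25, 8.26 and 7.93. H2-T24 showed the same division of libraries as B2m, with no overlap between the sets, and was 4.31-fold lower in PE (difference -2.11, SE 0.179, adjusted p = 1.33e-08 with limma). It passed the test in each of the settings tried, with differences from -2.23 to -2.03.

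H2-T23, the mouse Qa-1 chain, which shows leader peptides of other class I chains to NK cell receptors, was 7.20 to 7.92 in SVE, 6.79 to 7.07 in PE and 6.19 to 7.12 in mNKX3.1. Its fall in PE was 1.54-fold (difference -0.62, adjusted p = 0.0118 with limma), and the PE and SVE groups did not overlap. H2-Q6 was 5.12 to 5.23 in SVE and 4.13 to 5.08 in PE and fell by 0.60 (adjusted p = 0.0243 with limma). H2-Q6 passed in 10 of 16 settings, and among single libraries it did not pass without SVE replicate 3, PE replicate 1 or PE replicate 3 (adjusted p = 0.0512, 0.0893 and 0.0643 by limma).

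Other non-classical chains were higher in PE. H2-Q2 (difference 0.43, adjusted p = 0.037), H2-M3, which presents N-formylated peptides (0.33, adjusted p = 0.0406), and H2-T10 (0.17, adjusted p = 0.0311) passed the limma test. All 3 were near the threshold: H2-M3 passed in 7 of 16 settings, H2-Q2 in 9 of 16 and H2-T10 in 7 of 17. H2-Q4 (9.23 to 9.44 in SVE, 9.28 to 9.85 in PE, adjusted p = 0.0667) and H2-K2 (4.87 to 5.66 in SVE, 4.5 to 5.51 in PE) did not pass. In all, 5 of 10 tested heavy chains were higher in PE and 3 were lower, beside 31.8% and 30.4% of all genes.

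The genes for peptide supply and loading changed little. Of the 9 tested, 3 were higher in PE and 0 lower, beside 31.8% and 30.4% of all genes. Psmb10, a catalytic immunoproteasome subunit, was 7.49, 7.14, 7.56 and 7.34 in SVE and 7.47, 8.22, 8.03 and 7.90 in PE. In mNKX3.1 it was 7.87, 8.08, 7.91 and 8.10. Psmb10 rose 1.44-fold in PE (difference 0.52, SE 0.142, adjusted p = 0.00379 with limma). Tapbp, which encodes tapasin (difference 0.24, adjusted p = 0.00236), and Psme1, a subunit of the proteasome activator PA28 (0.23, adjusted p = 0.00645), also rose in PE by the limma test.

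The other catalytic subunits of the immunoproteasome, encoded beside the TAP genes in the class II region, did not pass in PE. Psmb8 was 7.78, 8.00, 8.15 and 8.13 in SVE and 7.47, 8.30, 7.86 and 7.87 in PE. It was 7.62, 8.08, 7.67 and 8.03 in mNKX3.1, 7.69, 7.56, 7.92 and 8.17 in UTY_sh, and 8.21, 7.97, 7.80 and 7.77 in mNKX3.1+UTY_sh. All 5 groups overlapped for Psmb8 (PE minus SVE -0.14, adjusted p = 0.478 with limma). Psmb9 was 6.86, 6.81, 7.05 and 7.19 in SVE, 7.0, 7.63, 7.15 and 7.19 in PE, and 7.10, 7.55, 7.33 and 7.53 in mNKX3.1. In UTY_sh Psmb9 was 6.65, 6.79, 6.92 and 7.04, and in mNKX3.1+UTY_sh 7.24, 7.04, 7.01 and 6.91. The Psmb9 groups of SVE and PE overlapped (difference 0.26, adjusted p = 0.103 with limma).

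Tap1, which forms the peptide transporter with Tap2, was 7.99, 8.06, 8.30 and 8.32 in SVE and 8.10, 8.52, 8.40 and 8.10 in PE. It was 8.31, 8.33, 8.24 and 8.38 in mNKX3.1, 8.13, 8.12, 8.03 and 8.17 in UTY_sh, and 8.40, 8.14, 8.13 and 7.93 in mNKX3.1+UTY_sh. Tap1 overlapped between SVE and PE (difference 0.11, adjusted p = 0.379 with limma), and Tap2 was 9.08 to 9.52 in SVE and 8.95 to 9.31 in PE (-0.21, adjusted p = 0.0634).

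Nlrc5, the class I transactivator, was 6.33, 6.46, 6.84 and 6.39 in SVE, and 6.06, 6.94, 6.29 and 6.37 in PE. It was 5.98, 6.61, 6.33 and 6.46 in mNKX3.1, 6.14, 6.74, 6.18 and 6.65 in UTY_sh, and 6.45, 6.65, 6.35 and 6.62 in mNKX3.1+UTY_sh. No group stood apart for Nlrc5 (PE minus SVE -0.09, adjusted p = 0.69 with limma). Psme2 was 5.68 to 6.22 in SVE and 5.77 to 6.43 in PE (0.08) and did not pass.

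The class II presenting chains were lower in PE. H2-Aa, the alpha chain of I-A, was 9.84, 9.84, 9.79 and 9.93 in SVE and 8.82, 9.07, 8.72 and 9.0 in PE. It was 8.66, 8.85, 8.89 and 8.83 in mNKX3.1. In UTY_sh it was 9.75, 9.67, 9.89 and 9.97 and in mNKX3.1+UTY_sh 9.97, 9.85, 9.75 and 9.86. All 8 libraries of PE and mNKX3.1 were below all 12 others, and H2-Aa was 1.92-fold lower in PE than in SVE (difference -0.94, SE 0.0796, adjusted p = 1.25e-08 with limma).

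Its partner H2-Ab1, the beta chain, was 9.52, 9.47, 9.58 and 9.46 in SVE and 8.27, 8.77, 8.15 and 8.54 in PE. It was 8.16, 8.37, 8.46 and 8.41 in mNKX3.1, 9.36, 9.29, 9.39 and 9.61 in UTY_sh, and 9.70, 9.47, 9.52 and 9.43 in mNKX3.1+UTY_sh. The same 8 libraries were the low ones, and H2-Ab1 was 2.11-fold lower in PE (difference -1.08, SE 0.11, adjusted p = 1.45e-07 with limma).

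H2-Eb1, the beta chain of I-E, was much less abundant. It was 5.19, 5.36, 5.33 and 5.20 in SVE, 4.85, 4.98, 4.31 and 4.27 in PE, and 4.77, 4.87, 4.75 and 4.66 in mNKX3.1. In UTY_sh it was 5.41, 5.65, 5.23 and 5.04, and in mNKX3.1+UTY_sh 5.46, 5.50, 5.48 and 5.60. H2-Eb1 was 1.59-fold lower in PE without overlap with SVE (difference -0.67, SE 0.164, adjusted p = 0.00168 with limma). H2-Ea-ps, the alpha gene of I-E, which is not functional in the b haplotype of C57Bl/6J, was 5.09 to 5.72 in SVE and 3.97 to 4.72 in PE and fell by 1.14 (adjusted p = 3.53e-05 with limma).

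Cd74, the invariant chain, which blocks the groove of new class II molecules and guides them to endosomes, was 11.27, 11.30, 11.20 and 11.26 in SVE. It was 10.21, 10.64, 10.12 and 10.35 in PE, and 10.03, 10.31, 10.34 and 10.35 in mNKX3.1. In UTY_sh it was 11.32, 11.19, 11.27 and 11.41, and in mNKX3.1+UTY_sh 11.39, 11.34, 11.18 and 11.27. Cd74 divided the libraries in the same way as the I-A chains and was 1.90-fold lower in PE (difference -0.93, SE 0.0919, adjusted p = 9.27e-08 with limma).

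Of the peptide exchange factors, H2-DMa, which with a DMb chain removes the invariant chain peptide, was 6.76 to 7.06 in SVE and 5.89 to 6.49 in PE and fell by 0.76 (adjusted p = 3.93e-05 with limma). H2-Ob, a chain of the DM inhibitor DO, was 4.83 to 5.2 in SVE and 4.34 to 4.56 in PE and fell by 0.58 (adjusted p = 0.00633). H2-DMb1 (-0.18) and H2-DMb2 (-0.12) did not pass.

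Ciita, which encodes the class II transactivator, was 6.54, 6.32, 6.58 and 6.40 in SVE and 5.64, 5.86, 5.73 and 5.64 in PE. It was 5.59, 5.77, 5.56 and 6.00 in mNKX3.1, 6.12, 5.97, 6.58 and 6.50 in UTY_sh, and 6.50, 6.40, 6.19 and 6.56 in mNKX3.1+UTY_sh. PE and SVE did not overlap for Ciita, which was 1.67-fold lower in PE (difference -0.74, SE 0.14, adjusted p = 1.67e-04 with limma). UTY_sh replicate 2, at 5.97, lay within the mNKX3.1 range. Rfx5, a subunit of the RFX complex, was 8.33 to 8.76 in SVE and 8.31 to 8.65 in PE, with a difference of -0.01 (95% interval -0.208 to 0.192).

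**Figure D3:**
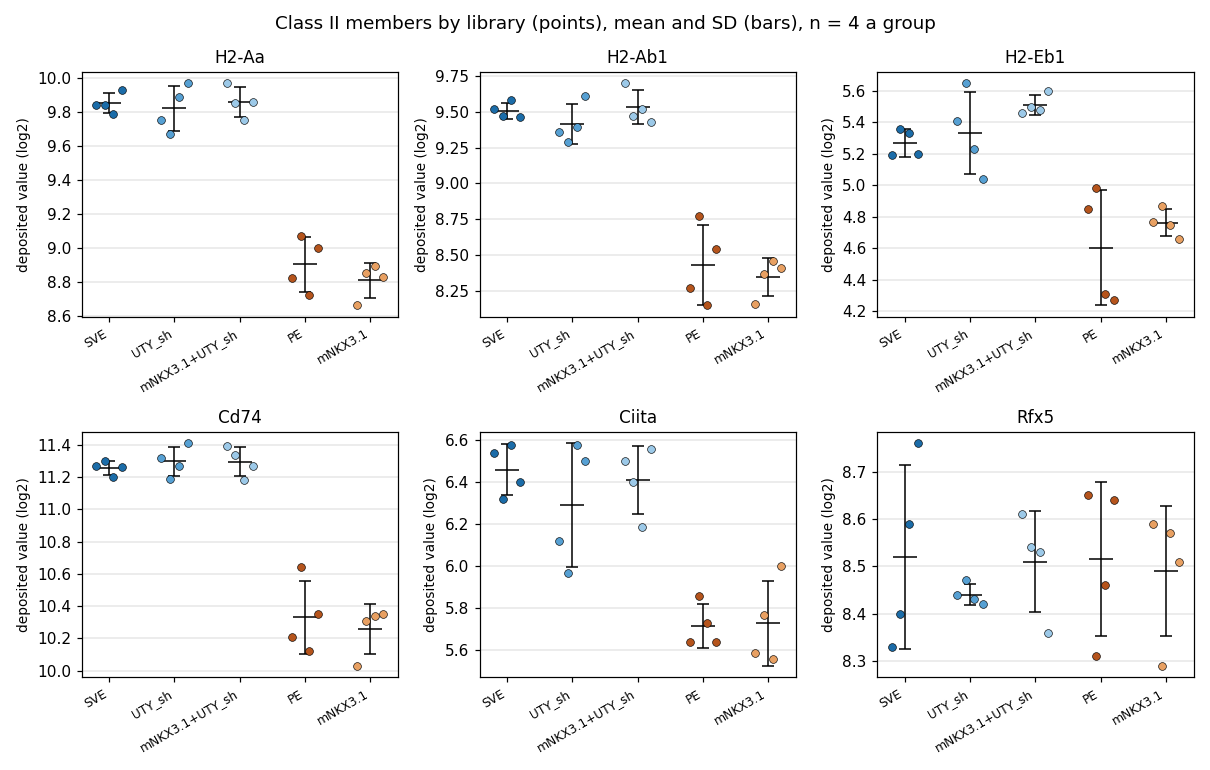
Deposited log2 values of H2-Aa, H2-Ab1, H2-Eb1, Cd74, Ciita and Rfx5 for each library in the 5 groups, with points for libraries and bars for mean ± SD (n = 4). The first 5 genes are lower in PE and mNKX3.1 than in SVE, while Rfx5 stays between 8.29 and 8.76 in all libraries.

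Of the members of neither class, H2-Ke6, a steroid dehydrogenase gene also named Hsd17b8, was 8.94 to 9.46 in SVE and 9.29 to 9.54 in PE and rose by 0.37 by the limma test. H2-Ke2, the prefoldin subunit Pfdn6, was 8.05 to 8.3 in SVE and 7.71 to 8.17 in PE and did not pass. The 22 members that were not tested stayed between 1.11 and 4.64, with a median of 2.75, close to the floor. They are H2-Bl, H2-Q1, H2-Q7, H2-Q8, H2-Q9, H2-Q10, H2-T3, H2-T9, H2-T22, H2-M1, H2-M2, H2-M5, H2-M9, H2-M10.1, H2-M10.2, H2-M10.3, H2-M10.4, H2-M10.5, H2-M10.6 and H2-M11 of class I, and H2-Eb2 and H2-Oa of class II. They were below the filter and were not tested.

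Many class I genes are near copies of each other, which bears on how reads were shared out. Of the overlapping stretches of 50 bases in its GENCODE transcripts (release M21, GRCm38), B2m shared 0% with any other gene, as did Cd74, Ciita, H2-Ab1, H2-Eb1 and H2-DMa, and H2-T24 shared 3.17%. The share was 9.63% in H2-K1, 12.8% in H2-D1, 13.6% in H2-T23, 21.8% in H2-Q4, 32% in H2-Q6 and 32.9% in H2-T10. The values of H2-Q6 and H2-T10, and of H2-Ke6 (70.5%), are therefore uncertain as values of 1 gene. How the authors annotated genes, and what became of multiply mapped and rat reads, is not given in the sources used here.

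Seminal vesicle epithelium carrying the mNKX3.1 construct was compared with SVE next. The members again split into a lower light chain and class II and slightly higher classical heavy chains. In this comparison 11 of 20 class I members passed, 7 higher and 4 lower, and 8 of 11 class II members passed, all 8 lower. Over all genes 62.3% were called, 31.7% higher and 30.6% lower. B2m was 7.59-fold lower (difference -2.92, adjusted p = 5.74e-12 with limma), H2-T24 fell by 2.07 (adjusted p = 1.66e-08) and H2-T23 by 0.89 (adjusted p = 8.16e-04). H2-K1 (0.36), H2-D1 (0.24), H2-M3 (0.48), Tapbp (0.22), Psme1 (0.26), Psmb10 (0.60) and Psmb9 (0.40) were higher, and Tap2 fell by 0.28. In class II, H2-Aa fell by 1.04, Cd74 by 1.0, H2-Ab1 by 1.16, H2-Ea-ps by 0.94, Ciita by 0.73, H2-DMa by 0.69, H2-Eb1 by 0.51 and H2-Ob by 0.46. This comparison and that of PE share the SVE libraries, so their likeness is no independent evidence.

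Compared directly, mNKX3.1 and PE were not distinguished for any member. By limma 0 members passed, and 0% of all genes were called. At an unadjusted p below 0.05 there were 0 members and 65 genes in all. With no difference and independent libraries, a share of about 0.05 of the 13456 genes would be expected there, far more than 65. The p-values of this comparison may therefore not measure the spread as assumed, and the reason was not tested. With array weights, 850 genes but 0 members were called. B2m differed by -0.02 (95% interval -0.321 to 0.272) and Cd74 by -0.07 (-0.266 to 0.12). Differences within those intervals cannot be told from none with 4 libraries a group.

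The hairpin alone was compared with SVE. By limma 0 members passed, and 0% of all genes were called, with 2 members and 316 genes at an unadjusted p below 0.05. Those members were H2-DMa (-0.29, unadjusted p = 0.0298 with limma) and H2-T10 (0.14, unadjusted p = 0.0433 with limma), named for their p after it was seen. B2m differed by -0.06 (95% interval -0.357 to 0.236, adjusted p = 0.999) and Cd74 by 0.04. For the group labelled with construct and hairpin, 0 members passed against SVE and 0% of all genes were called, with 3 members (H2-Q2, H2-DMa and H2-Ea-ps) and 557 genes at an unadjusted p below 0.05. B2m differed there by -0.08 (95% interval -0.373 to 0.22). The counts of 316 and 557 genes were also below the share of 0.05 of the 13456 genes expected with no difference. The reason was not tested.

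Libraries labelled mNKX3.1+UTY_sh were then compared with those labelled mNKX3.1, which asks how far the expression that goes with the construct is seen when the hairpin is also present. B2m and the class II genes were higher with the hairpin and the classical heavy chains slightly lower. Of class I members 11 of 20 passed, 4 higher and 7 lower, and of class II members 8 of 11 passed, all 8 higher. Over all genes 63.8% were called, 31.4% higher and 32.4% lower. B2m was 7.20-fold higher (difference 2.85, adjusted p = 8.22e-12 with limma) and H2-T24 5.11-fold higher (2.36, adjusted p = 2.9e-09). H2-T23 (0.72) and Tap2 (0.34) were also higher, while H2-M3 fell by 0.70, Psmb10 by 0.45, Psmb9 by 0.33, Psme1 by 0.31, Tapbp by 0.30, H2-K1 by 0.30 and H2-D1 by 0.21. The calls of Psmb9 and H2-D1 were the least stable, passing in 7 and 10 of 17 settings, with differences of -0.05 and -0.01 without the 5 libraries of high Emr1 described below. Psmb9 did not pass without any of mNKX3.1 replicates 2, 3 and 4 or mNKX3.1+UTY_sh replicates 2, 3 and 4 (adjusted p from 0.0621 to 0.128 by limma). H2-D1 did not pass without mNKX3.1 replicate 2, 3 or 4 or mNKX3.1+UTY_sh replicate 2 (adjusted p from 0.0694 to 0.0893 by limma). In class II H2-Ab1 (1.18), H2-Aa (1.05, adjusted p = 2.93e-09), Cd74 (1.04, adjusted p = 2.23e-08), H2-Eb1 (0.75), Ciita (0.68), H2-Ea-ps (0.55), H2-Ob (0.55) and H2-DMa (0.41) were higher. H2-Ke2 was also higher (0.35).

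The difference made by the construct was tested for whether it differed with and without the hairpin, as the interaction of the 4 seminal vesicle groups. Of class I members 6 of 20 passed, 4 positive and 2 negative, and of class II members 7 of 11, all 7 positive. Over all genes 48.1% were called, 24% positive and 24% negative. B2m had an interaction of 2.91 (SE 0.2, adjusted p = 2.43e-09 with limma), H2-T24 of 2.28, H2-Ab1 of 1.28, H2-Aa of 1.08 and Cd74 of 0.999. H2-K1 (-0.40) and H2-M3 (-0.54) were the class I members with a negative one. The interaction rests on the same mNKX3.1 libraries as both comparisons before it.

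The comparison of PE with SVE and that of mNKX3.1 with mNKX3.1+UTY_sh have no library in common. Libraries of different groups could still be closer than libraries of the same group. By a mean chi-squared distance between libraries, PE replicate 4 was at 2.66 from mNKX3.1 replicate 3 and at 9.41 to 51.7 from the rest of PE. SVE replicate 1 was at 9.31 from mNKX3.1+UTY_sh replicate 4 and at 48 to 65.2 from the rest of SVE. Replicates 2 and 4 of mNKX3.1 were at 2.21. Whether these comparisons are independent was not tested. Of the 33 tested members, 32 had the same sign in both (97%), and Pearson's r across these members was 0.963, or 0.941 without B2m. Across all 13456 genes the same sign was seen in 91.6% and r was 0.978, so the likeness is that of the whole table. These are correlations across genes, which are not independent replicates. In both comparisons 17 of the 33 members passed in the same direction and 0 in opposite directions. Over all genes 7444 of 13456 passed in the same direction and 0 in opposite directions, so these counts do not set the members apart. Those lower in both were B2m, H2-T24, H2-T23, H2-Aa, H2-Ab1, H2-Eb1, H2-Ea-ps, Cd74, Ciita, H2-DMa and H2-Ob, and those higher in both were H2-K1, H2-D1, H2-M3, Psmb10, Psme1 and Tapbp. H2-Q2 was the member with opposite signs.

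**Figure D4:**
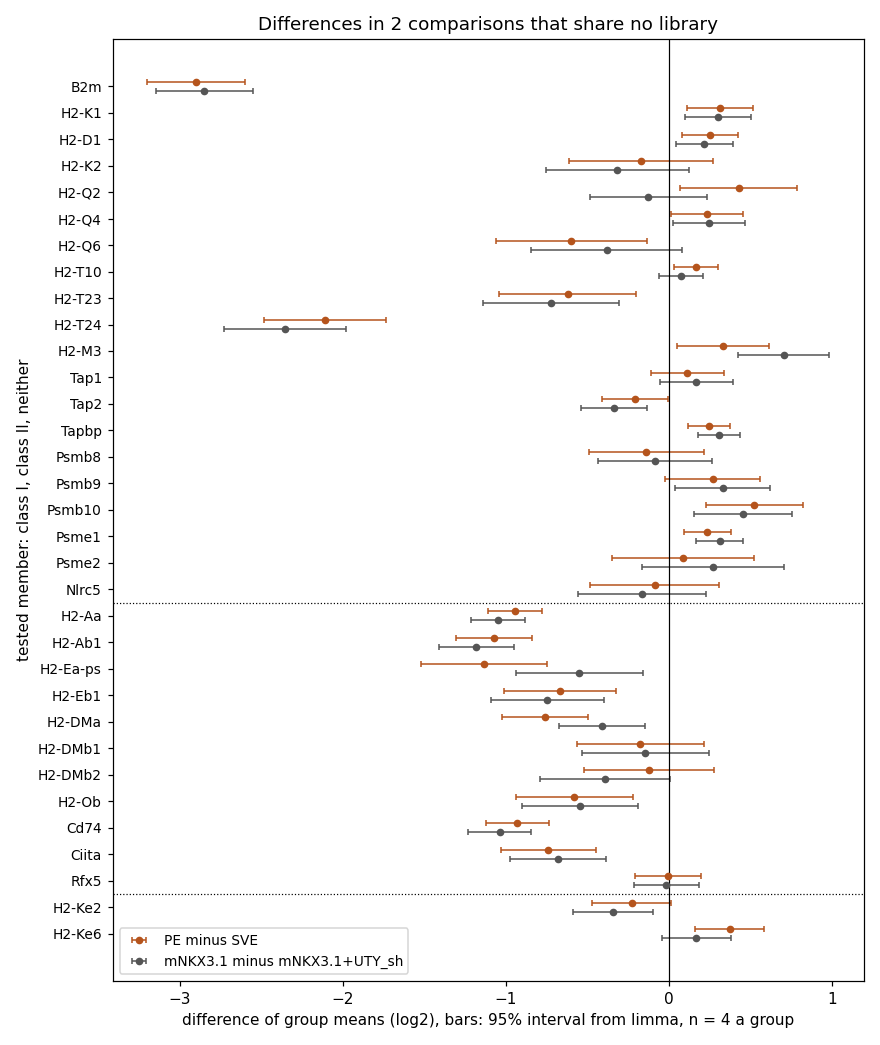
Each row is a tested member. The log2 differences PE minus SVE and mNKX3.1 minus mNKX3.1+UTY_sh share the horizontal axis, coloured by comparison, with bars for 95% intervals. B2m and H2-T24 lie far to the left in both comparisons, and the class II members lie between 0 and about -1.2 in both. H2-K1, H2-D1 and H2-M3 lie to the right of 0 in both.

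Libraries of 1 group also differed from each other in leukocyte genes. Emr1, which encodes the macrophage marker F4/80, was 6.71, 12.32, 8.62 and 11.46 in PE, and 7.99, 11.42, 11.04 and 11.64 in mNKX3.1. In the 12 libraries of the other groups it was 7.05 to 7.66. The 5 libraries above 10 were PE replicates 2 and 4 and mNKX3.1 replicates 2, 3 and 4. The mean of 5 heavy chains (H2-K1, H2-D1, H2-Q4, H2-T10 and H2-M3) was 9.36, 9.79, 9.54 and 9.54 in PE and 9.48, 9.61, 9.54 and 9.70 in mNKX3.1, lowest in both groups where Emr1 was lowest. The mean of 6 class II genes (Cd74, H2-Aa, H2-Ab1, H2-Eb1, H2-DMa and Ciita) was 7.28, 7.56, 7.25 and 7.31 in PE and 7.21, 7.38, 7.40 and 7.41 in mNKX3.1, below the 8.05 to 8.28 of the other groups in each library.

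Without these 5 libraries, which leaves 2 PE libraries and 1 mNKX3.1 library (the lone library is assumed to vary like the other groups), 5 class I members passed in PE against SVE in place of 12. These were B2m (-3.01), H2-T24 (-2.06), H2-T23 (-0.70) and H2-Q6 (-0.93), all lower, and H2-Q2, higher. H2-D1 (0.09, adjusted p = 0.245), H2-K1 (0.21, adjusted p = 0.0903) and Psmb10 (0.37, adjusted p = 0.0967) no longer passed the limma test. Fewer of all genes were called in this setting as well, so the lower count is not a result about the members. In mNKX3.1 against SVE, with 1 mNKX3.1 library, B2m was at -2.96, H2-T24 at -2.18, H2-K1 at 0.20 and H2-D1 at 0.04. In mNKX3.1+UTY_sh against that library they were at 2.88, 2.46, -0.14 and -0.01. In PE the fall of B2m and of most called class II members was as large without the 5 libraries of high Emr1. Cd74 was at -1.09, H2-Aa at -1.08, H2-Ab1 at -1.30, Ciita at -0.77, H2-Eb1 at -0.69 and H2-Ob at -0.62. H2-DMa (-0.695 against -0.761 with all libraries) and H2-Ea-ps (-1.01 against -1.14) fell somewhat less. This division was chosen after the data were seen, and the part of macrophages in the small rises of the heavy chains was not tested beyond it.

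**Figure D5:**
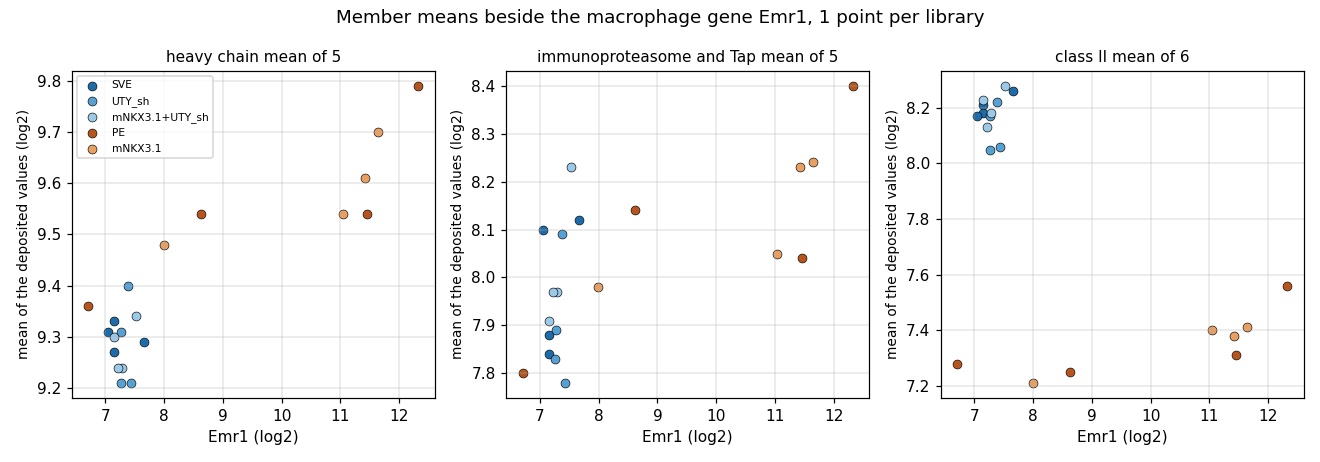
For each of the 20 libraries, the mean log2 value of 5 heavy chains, of 5 immunoproteasome and TAP genes and of 6 class II genes is plotted against the log2 value of Emr1, with 1 colour per group. The class II mean is lower in PE and mNKX3.1 at low and at high Emr1, whereas the highest heavy chain mean, 9.79, is in the library with the highest Emr1, 12.32.

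Some marker genes of other cell types also differed between the groups. The counts below stand beside 31.8% of all genes called higher and 30.4% lower in PE against SVE. In mNKX3.1 against SVE these shares were 31.7% and 30.6%. Of 11 tested macrophage and monocyte markers, 2 were higher in PE than SVE and 0 lower, and 7 were higher in mNKX3.1 than SVE and 0 lower. The log2 of their summed antilogs was 11.84 to 12.23 in SVE, 11.62 to 14.56 in PE and 11.88 to 13.93 in mNKX3.1. Csf1r, the receptor that marks the macrophage lineage, did not pass in either comparison (0.19 in PE, 0.21 in mNKX3.1). Of 7 tested dendritic cell markers, 1 was higher and 3 lower, with sums of 8.5 to 8.87 in SVE, 8.0 to 8.33 in PE and 8.09 to 8.23 in mNKX3.1. Itgax, the CD11c gene of dendritic cells, was 6.13 to 6.95 in SVE and 5.24 to 5.5 in PE and fell by 1.22 (adjusted p = 3.71e-06 with limma), in the same libraries as the class II genes.

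B cell sums overlapped (5.86 to 7.25 in SVE, 6.1 to 7.1 in PE). T and NK cell sums were 7.73 to 7.96 in SVE and 6.62 to 7.11 in PE, with 3 of 4 tested genes lower, and the T cell gene Cd3d stayed near the floor (1.67 to 3.46). Of 5 pan-leukocyte markers 0 were higher in PE and 1 lower: Ptprc did not pass (0.53), and Cd52, named after its value was seen and also a product of male tract epithelium, fell by 5.71. The summed level of the list was 14.5 to 15.1 in SVE and 9.79 to 12.36 in PE, and without Cd52 it was 9.49 to 9.86 and 9.02 to 12.1. Epcam, a marker of epithelium, rose by 1.73 in PE, and all 4 epithelial markers passed as higher. Smooth muscle markers were lower in PE in 5 of 5 and fibroblast markers in 3 of 5. Over all genes 31.8% were called higher in PE and 30.4% lower. The part of these cell types in the class II and B2m differences was not tested.

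Other genes of the class I pathway, which the choice by name left out, were mostly higher in PE. Of 10, 8 were higher and 0 lower, beside 31.8% and 30.4% of all genes. Their median difference was 0.60 against 0.02 over all genes. Pomp, the chaperone of proteasome assembly (0.78, adjusted p = 3.07e-09 with limma), Pdia3, a disulphide isomerase of the loading complex (0.95, adjusted p = 1.83e-07), and Erap1, which trims peptides in the endoplasmic reticulum (0.63, adjusted p = 2.55e-07), had the smallest p. In mNKX3.1+UTY_sh against mNKX3.1 Pomp fell by 0.79, Pdia3 by 0.95 and Erap1 by 0.74. All 3 constitutive catalytic proteasome subunits, the counterparts that immunoproteasome subunits replace, were higher in PE, by 0.22 to 0.41.

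Other genes of the class II pathway did not follow the class II members. Of 11, 2 were higher in PE and 3 lower, beside 31.8% and 30.4% of all genes, with a median difference of -0.03. Lgmn, an endosomal protease (1.38, adjusted p = 0.00111 with limma), and Ifi30, the lysosomal thiol reductase (0.65, adjusted p = 1.8e-05), rose, while Ctsl, the protease cathepsin L, fell by 0.27. March1 and March8 were not analysed here. All lists were chosen with earlier results of these data known, so their directions are descriptions.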

How the data were processed

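Poly-A RNA of 20 grafts was sequenced from TruSeq libraries, per the labels' protocols. Tools named in the submitters' processing notes are TopHat2 2.0.4, Cufflinks 2.0.2, bcl2fastq 1.8.4 and DESeq, and the build is mm9. Order, counter and annotation were not given in the sources used here, and the labels name no batch. Replicate numbers are names only. The authors deposited 1 table of log2 values, and in the range tested (896 to 1002 values per library) the antilogs were whole multiples of the worth of 1 read within 0.1, which gave the depth. No column was unmapped. Because the values are already on a log scale, no pseudocount was added. The filter (a value of at least 5 in at least 4 libraries), limma 3.58.1 in R 4.3.3 with a variance trend on all 20 libraries, 5 group means and Benjamini-Hochberg adjustment over 13456 genes gave 7 comparisons. A gene was called at an adjusted p below 0.05. All groups share 1 spread per gene. The test was checked on simulated data.

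Members and lists were chosen with earlier results of these data known. Per-library values are given for H2-K1, H2-D1, B2m, Psmb8, Psmb9, Tap1, Nlrc5, H2-Aa, H2-Ab1, H2-Eb1, Cd74, Ciita and the 2 called members with the smallest p per class and comparison. Psmb10 was added after its values were seen. Other members are given by range and count, pathway lists by up to 3 called genes with the smallest p, and marker lists by their first gene. Sequences are from RefSeq (GRCm38.p6). The alternatives were other filters, fits, scaling and samples, and 1 was added after the data were seen. Some items are not reported here.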

Additional observations from a re-analysis of the deposited data

Results flagged for a closer look

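Among the values of members by group, 9 had a library far from the other 3, where chance alone gives about 1 in 20 groups and 165 were examined. B2m was 14.19 in PE replicate 3 (others 14.52 to 14.57), Cd74 10.03 in mNKX3.1 replicate 1 (others 10.31 to 10.35) and H2-Q6 3.855 in the same library (others 4.849 to 5.016). H2-Ke6 was 9.288 (others 9.527 to 9.544) and H2-Q2 6.927 (others 6.348 to 6.431) in PE replicate 3. H2-DMa was 6.5 in mNKX3.1+UTY_sh replicate 2, H2-M3 6.055 in mNKX3.1+UTY_sh replicate 3, H2-DMb1 5.917 in SVE replicate 2 and H2-DMb2 4.33 in UTY_sh replicate 3.

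For 13 of 33 tested members the construct difference itself differed with and without the hairpin by the limma interaction test. Over all genes 48.1% were called, so this count does not set the members apart. The value with the hairpin minus that without was 2.91 for B2m, 2.28 for H2-T24, 1.28 for H2-Ab1, 1.08 for H2-Aa, 0.999 for Cd74, 0.885 for H2-T23, 0.853 for H2-Ea-ps, 0.849 for Ciita, 0.708 for H2-DMa, 0.685 for H2-Eb1 and 0.396 for Tap2, and it was -0.402 for H2-K1 and -0.535 for H2-M3. Since Uty was not lower than SVE beyond the spread in libraries labelled with the hairpin, these values compare labelled groups.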

How the results depend on the processing

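Of 254 counts of called members under another setting, 244 stayed within 1.5 times the reported one and no direction of a called member reversed. A minimum value of 7 left 3 class II members called in place of 8 in PE and in mNKX3.1, each against SVE, and in mNKX3.1+UTY_sh set against mNKX3.1, and 3 in place of 7 for the interaction, because fewer members were tested. Fitting the compared groups only gave 6 class I members in PE against SVE, and array weights gave 10 for the class I interaction; the cause was not tested. Without the 5 libraries of high Emr1, class I counts were 5 for PE and 4 for mNKX3.1, each against SVE, 4 in mNKX3.1+UTY_sh against mNKX3.1 and 3 for the interaction, with fewer samples in each. Leaving out each library in turn gave 8 to 13 class I and 8 to 9 class II members in PE against SVE, 10 to 13 and 7 to 8 in mNKX3.1 against SVE, 9 to 12 and 8 to 8 in mNKX3.1+UTY_sh against mNKX3.1, 5 to 9 and 7 to 8 for the interaction, and 0 to 0 elsewhere. The 8 class I members in PE against SVE came without SVE replicate 3 and the highest interaction count, 9, without mNKX3.1+UTY_sh replicate 1. The 22 members near the floor were not tested. No paired analysis was possible because the labels and columns carry no replicate numbers.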

Other observations

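Class I-like genes outside the H2 names encode chains that pair with beta-2-microglobulin or resemble such chains. Of 6 tested, 3 were higher in PE than in SVE and 0 lower, and in mNKX3.1 against SVE 3 were higher and 1 lower, beside 62.1% and 62.3% of all genes called. Hfe, a regulator of iron uptake, rose by 1.78 (adjusted p = 6.64e-07 with limma), Mr1, which presents vitamin B metabolites to MAIT cells, rose by 1.15 (adjusted p = 1.48e-06) and Azgp1, a secreted class I-like protein that does not need the light chain, rose by 7.30 (adjusted p = 3.6e-04). In mNKX3.1+UTY_sh against mNKX3.1, Hfe fell by 1.75, Mr1 by 0.85 and Azgp1 by 7.22. Of 9 tested genes of the interferon gamma axis, 5 were higher in PE and 2 lower, beside 31.8% and 30.4% of all genes: Ifngr2, a receptor chain, rose by 1.43, while the kinases Jak1 and Jak2 fell by 1.03 and 0.95. Of 3 tested costimulation genes, 0 were higher in PE and Icosl fell by 0.48, while in mNKX3.1 against SVE Cd274 rose by 0.98 (adjusted p = 0.0283 with limma) and Icosl did not pass (-0.40, adjusted p = 0.0781).

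Within the 12 libraries of SVE, UTY_sh and mNKX3.1+UTY_sh, B2m was high where seminal vesicle secretory genes were high. Across these libraries B2m and the mean of 6 secretory genes (19.87 to 20.82) had Pearson's r = 0.851 (permutation p = 6e-05, adjusted 0.00024) and Spearman's rho = 0.86 (permutation p = 0.00064, adjusted 0.00256), with 4 relations computed. Without the 2 libraries farthest from the median r was 0.927, and after centring on group means it was 0.874. For H2-T24, the member most like B2m between groups, r was 0.211 (permutation p = 0.503) and rho 0.0979 (permutation p = 0.768). The other relations, of the mean of 6 class II genes with the mean of the dendritic list and of the macrophage list, had r of 0.303 and 0.481. The libraries lowest in the secretory mean, SVE replicate 1 (19.87) and mNKX3.1+UTY_sh replicate 4 (20.05), had prostate secretory means of 10.41 and 9.82, against 4.64 to 10.78 over the 12. Both measures come from the same libraries and share their scaling. By the chi-squared distance given above, SVE replicate 1 was closer to mNKX3.1+UTY_sh replicate 4 than to any other SVE library. The 12 libraries may therefore not be independent points, and the permutation p-values may be too small.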
